A study of Homo sapiens with 6 samples.

Results

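The tumor necrosis factor (TNF) superfamily ligands examined here are the genes listed as CD70 or under a symbol that begins with TNFSF, and 4 of the 4546 genes in the deposited table met that rule: TNFSF9, TNFSF14, CD70 and TNFSF15. They were measured by RNA sequencing of A549, a cell line established from a human lung adenocarcinoma, in 3 libraries of cells given 50 nM mitoxantrone, a topoisomerase II poison, and 3 libraries of cells given DMSO, the solvent, at 1 part in 1000. Both treatments lasted 48 hours, and the labels name no other agent or genetic change in either group. By its title the series belongs to a study of senescence that makes lung cancer cells immunogenic.

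Ligands of this superfamily are membrane proteins that assemble as trimers and engage receptors of the TNF receptor superfamily on neighbouring cells. TNFSF9 (4-1BBL) binds TNFRSF9 on activated T and NK cells, CD70 binds CD27 on T cells, TNFSF14 (LIGHT) binds TNFRSF14 (HVEM) and the lymphotoxin beta receptor, and TNFSF15 (TL1A) binds TNFRSF25 (DR3). All are known as costimulators of T cells, a signal given beside that of the antigen receptor. Receptors of the family signal through TRAF adaptors to NF-kB transcription factors or, where they carry a death domain, to caspases.

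The 250 bases before an annotated transcription start are shown for the ligands found in the RefSeq promoter table. Their transcripts moved in the same direction, and these windows let annotated promoters be set side by side. Whether the transcripts counted here began at these starts was not tested. CD70 is the remaining ligand. Build GRCh38.p14 gives TNFSF9 at chr19:6530776-6531025 on the plus strand, TNFSF14 at chr19:6670161-6670410 on the minus strand and TNFSF15 at chr9:114792531-114792780 on the minus strand. Capitals mark every match, on either strand, to the motifs named after the sequences, and matches may overlap.
TNFSF9: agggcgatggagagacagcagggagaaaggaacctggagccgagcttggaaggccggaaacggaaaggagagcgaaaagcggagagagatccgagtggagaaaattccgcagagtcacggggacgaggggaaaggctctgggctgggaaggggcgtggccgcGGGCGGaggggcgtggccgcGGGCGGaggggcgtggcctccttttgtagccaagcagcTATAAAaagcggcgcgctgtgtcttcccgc
TNFSF14: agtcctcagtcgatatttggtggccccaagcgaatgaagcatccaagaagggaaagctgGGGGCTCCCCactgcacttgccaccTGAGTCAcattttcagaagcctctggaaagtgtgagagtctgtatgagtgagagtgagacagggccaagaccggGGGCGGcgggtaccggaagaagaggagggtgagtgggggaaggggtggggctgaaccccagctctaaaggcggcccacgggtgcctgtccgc
TNFSF15: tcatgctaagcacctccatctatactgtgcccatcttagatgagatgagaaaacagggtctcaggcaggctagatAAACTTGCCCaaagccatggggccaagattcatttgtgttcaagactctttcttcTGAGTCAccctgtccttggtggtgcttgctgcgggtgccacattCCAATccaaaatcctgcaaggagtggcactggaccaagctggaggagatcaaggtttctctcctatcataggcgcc

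The motifs searched were the NF-kB decamer, AP-1 (TGANTCA), the GC box (GGGCGG), the TATA box (TATAAA), the CCAAT box (CCAAT) and the p53 decamer. The TNFSF9 window held 2 GC boxes, at -88 to -83 and -68 to -63 from the start, and a TATA box at -30 to -25. The TNFSF14 window had 1 match each to the NF-kB decamer (GGGGCTCCCC, at -191 to -182), AP-1 (TGAGTCA, at -166 to -160) and the GC box, and 0 to the TATA box. The TNFSF15 window had 1 match each to the p53 decamer (at -175 to -166), AP-1 (again TGAGTCA, at -120 to -114) and the CCAAT box, and 0 to the GC box. No motif was found in all 3 windows. Over 27305 promoters of the same length, 42.3% held the GC box, 33.0% the CCAAT box, 11.1% the TATA box, 6.60% AP-1, 5.53% the p53 decamer and 5.05% the NF-kB decamer. The GC content was 64.4% for TNFSF9, 60% for TNFSF14 and 50% for TNFSF15, against a median of 58% over those promoters. These matches describe the letters in the windows, and no binding was measured.

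Recovered library totals were between 16681380 and 19352443 reads with mitoxantrone and between 20380674 and 21781220 with DMSO, of which the listed genes held 16.9% to 17.3%. The table holds only genes that passed a threshold of the authors on these same libraries, with an absolute log2 fold change of at least 1.00 and an adjusted p of at most 0.0497, so every ligand in it had to differ. A gene that is not listed has no value here, which does not mean that it was unchanged. By edgeR's quasi-likelihood test 2677 listed genes (58.9%) were higher and 1869 (41.1%) lower with mitoxantrone. With size factors that DESeq2 computed from the listed genes alone, which moved the median log2 fold change by -0.84, the split was 1580 higher and 1868 lower. That is 45.8% higher among the genes still called, while the 58.9% is a share of all listed genes. The labels do not say whether the libraries came from separate cultures, and the spread behind the p-values may be technical. Of 16 markers of a lung epithelial line 6 were listed, beside 17.9% of all protein-coding genes. KRT8, KRT19, CDH1, AKR1B10, AKR1C1 and ALDH3A1 were all higher, as were 58.9% of listed genes. Their summed FPKM (a value per gene length and sequencing depth) was 4648 to 4911 with mitoxantrone and 1602 to 1882 with DMSO. Most of that sum came from AKR1B10, KRT8 and ALDH3A1. Means of these were 1973, 1381 and 1204 FPKM with mitoxantrone and 931, 676 and 132 FPKM with DMSO.

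All 4 ligands rose with mitoxantrone. TNFSF14, with almost no reads in DMSO, had the largest fold, followed by TNFSF9, CD70 and TNFSF15. In the edgeR test across all listed genes 4 of 4 were called higher and 0 lower, where 58.9% of listed genes were called higher. The count of lower ligands was also 0 at an unadjusted p of 0.05 and in DESeq2. Selection of the listed genes on these same libraries largely fixed in advance that each would pass again in its listed direction. It did not set which direction that was. In all 4 the groups did not overlap, each mitoxantrone library being above each DMSO library, as in 57.5% of listed genes; in 40.8% the groups were apart the other way. With the size factors computed from the listed genes alone, the log2 fold changes of TNFSF14, TNFSF9, CD70 and TNFSF15 were 5.78, 2.68, 1.49 and 1.10 in DESeq2, all still past the threshold. In a bulk sample more cells with a transcript and more transcript per cell cannot be told apart.

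TNFSF9 (ENSG00000125657), the ligand of 4-1BB, lies at 6531010 to 6535931 on the plus strand of chromosome 19 as the table gives it, with no build named. It had 913, 822 and 809 normalized counts (reads divided by the library's size factor) in mitoxantrone 1 to 3, against 78.9, 69.7 and 73.3 in DMSO 1 to 3. Every mitoxantrone library was over 10 times as high as every DMSO library, and the spread within either group was small beside that gap. The means were 848 ± 56.9 with mitoxantrone and 73.9 ± 4.64 with DMSO (SD, n = 3 libraries each), an 11.5-fold difference. The log2 fold change was 3.51 ± 0.11 (SE; edgeR, adjusted p = 2.08e-28). In order of log2 fold change TNFSF9 was at position 434 of the 4546 listed genes.

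CD70 (ENSG00000125726), the ligand of CD27, lies on the minus strand at 6583194 to 6604114. It had 719, 798 and 745 normalized counts in mitoxantrone 1 to 3 and 148, 163 and 137 in DMSO 1 to 3. The highest DMSO library was far below the lowest mitoxantrone library. The means were 754 ± 40.5 with mitoxantrone and 150 ± 13.2 with DMSO, a 5.04-fold difference, with a log2 fold change of 2.33 ± 0.10 (edgeR, adjusted p = 1.44e-23).

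TNFSF14 (ENSG00000125735), also on the minus strand, at 6663148 to 6670599, had 128, 128 and 130 reads in the mitoxantrone libraries and 3, 0 and 2 reads in the DMSO libraries. The transcript was thus close to the limit of detection with DMSO and evenly present with mitoxantrone. Scaled by size factor these were 155, 144 and 133 normalized counts with mitoxantrone and 2.57, 0 and 1.72 with DMSO. From 386 reads in all with mitoxantrone and 5 with DMSO, the ratio was 97.6 (exact 95% interval 41.4 to 302), which covers counting error only. The log2 fold change was 6.50 ± 0.34 (edgeR, adjusted p = 4.54e-21), the ninth largest rise in the table (position 9). The authors' deposited table gives 5.59 ± 0.43, and without DMSO 1, which held 3 of the 5 reads, the edgeR value was 7.14.

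TNFSF15 (ENSG00000181634), a ligand of the death domain receptor DR3, is on another chromosome, at 117546915 to 117568406 on the minus strand of chromosome 9. Its promoter window in GRCh38.p14 is at 114792531-114792780, so the deposited coordinates are of another build and cannot be set beside the windows above. TNFSF15 had 133, 154 and 150 normalized counts in mitoxantrone 1 to 3, against 35.2, 42.7 and 36.2 in DMSO 1 to 3. Its groups were also apart. The means were 146 ± 10.9 with mitoxantrone and 38.0 ± 4.10 with DMSO, a 3.83-fold difference, with a log2 fold change of 1.94 ± 0.17 (edgeR, adjusted p = 1.72e-13). This fold is close to the median of all genes called higher, which was 1.87 on the log2 scale.

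**Figure D1:**
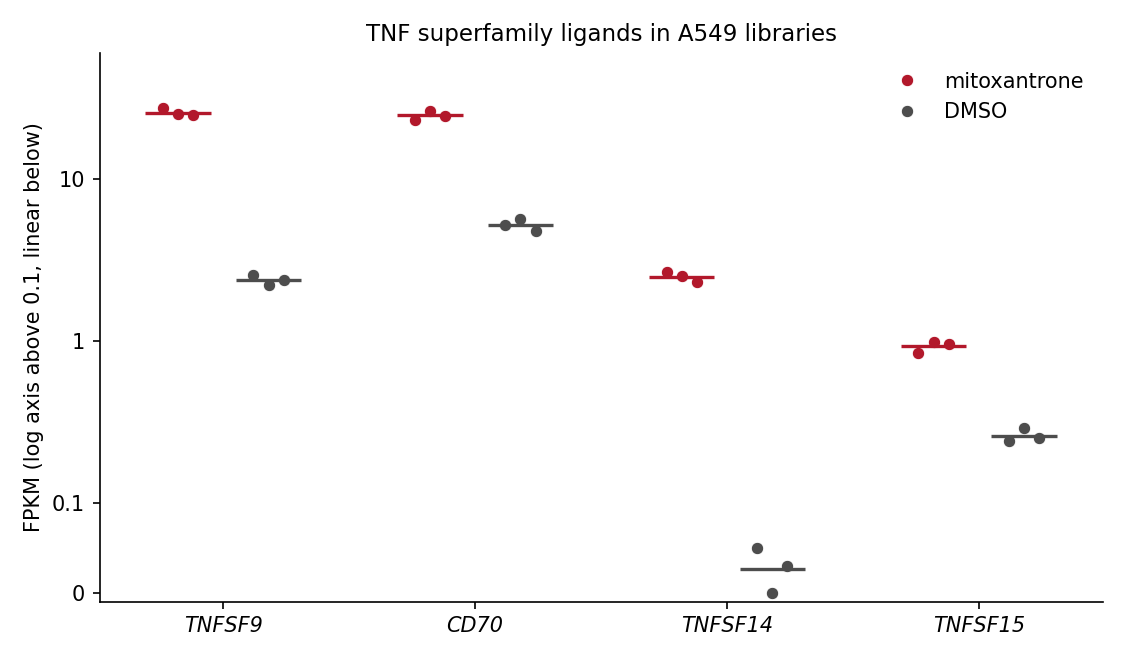
Deposited FPKM of each ligand in each library (points) with the group mean (line), mitoxantrone to the left of DMSO; the vertical axis is logarithmic above 0.1 and linear below. TNFSF9 and CD70 overlap with mitoxantrone, while with DMSO CD70 is above TNFSF9, and TNFSF14 with DMSO lies between 0 and 0.05.

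FPKM is scaled by gene length and so allows levels of different genes to be compared. With mitoxantrone TNFSF9 stood at 27.3, 25.1 and 24.7 FPKM and CD70 at 23.2, 26.4 and 24.6, ranges that overlap, so their order is not set. TNFSF14 followed at 2.32 to 2.65 FPKM and TNFSF15 at 0.84 to 0.99. With DMSO the order was CD70 at 4.80 to 5.64 FPKM, TNFSF9 at 2.22 to 2.55, TNFSF15 at 0.24 to 0.29 and TNFSF14 at 0 to 0.05, with no overlap between neighbours. In FPKM TNFSF14 and TNFSF15 thus stood in opposite order in the groups. With mitoxantrone their normalized counts were alike, at 144 ± 11.1 and 146 ± 10.9. Their order in that group therefore rests on the gene lengths used, 2894 and 7889 bases. The summed FPKM of the 4 ligands was 52.6 to 55.0 with mitoxantrone and 7.45 to 8.15 with DMSO. TNFSF9 made up 45.7% to 50.5% of that sum with mitoxantrone and 27.2% to 31.8% with DMSO, and CD70 made up 43.0% to 47.9% with mitoxantrone and 64.4% to 69.2% with DMSO.

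The ligands did not change by a common factor in these libraries. The log2 ratio of TNFSF9 to CD70 in FPKM was 0.06 ± 0.16 with mitoxantrone and -1.13 ± 0.19 with DMSO (SD, n = 3), a difference of 1.18. For TNFSF14 a value of 0.1 FPKM was added because DMSO 2 is listed at 0, and the ratio then differed by 1.00 against TNFSF9 and by 2.15 against CD70. In each of the 3 pairs the groups did not overlap, with a two-sided exact permutation p of 0.1 (0.1 adjusted over the 3 pairs), the smallest that 3 against 3 libraries can give. The TNFSF14 ratios turn negative, to -1.21 and -0.28, when 1 FPKM is added, a value above every DMSO level of this gene, and reach 2.58 and 3.76 on normalized counts plus 1. Their direction therefore depends on the added value, while the TNFSF9 to CD70 ratio differed by 1.18, 1.15 and 0.93 with 0, 0.1 and 1 FPKM added, and by 1.18 on normalized counts with nothing added.

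**Figure D2:**
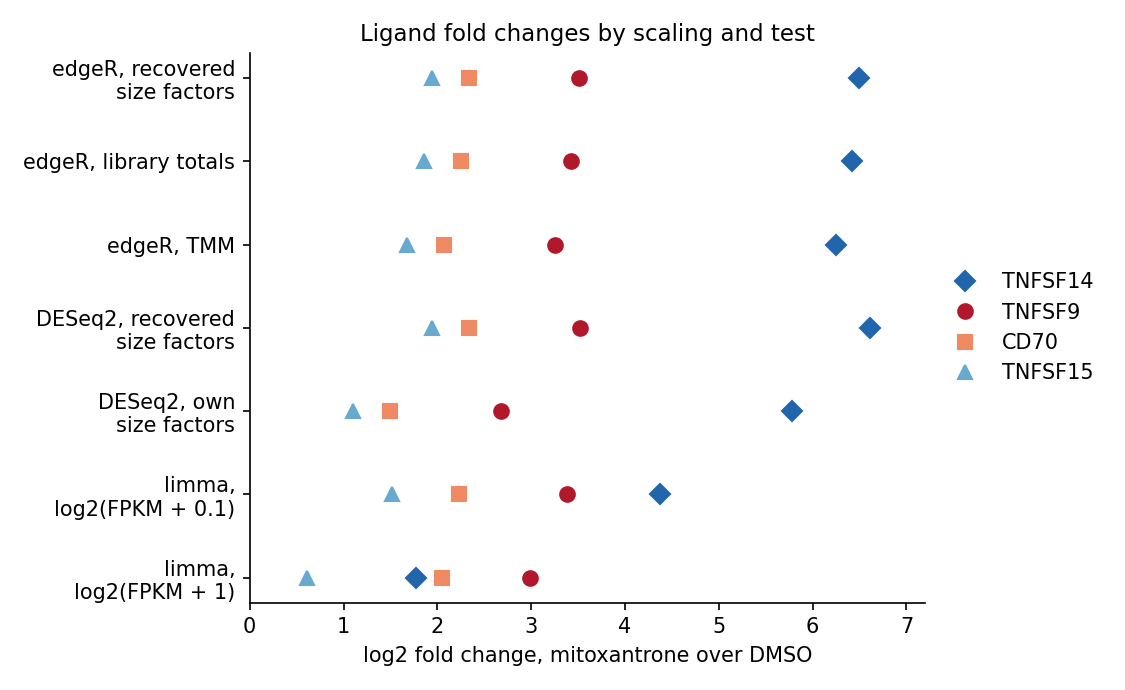
Log2 fold change of each ligand (mitoxantrone over DMSO, horizontal axis) under the scalings and tests named on the vertical axis. All 28 points lie above 0; TNFSF14 leads except with 1 FPKM added, where its 1.77 lies below TNFSF9 at 2.98 and CD70 at 2.05.

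TNFSF9, CD70 and TNFSF14 share a place in the genome that the choice of genes did not use. In GENCODE 29 (GRCh38) they are consecutive protein-coding genes on chromosome 19, between TUBB4A, which encodes a beta-tubulin, and C3, which encodes the complement component. All 5 genes of this stretch were listed and called higher, of which the 3 ligands were listed by the choice of genes. In the deposited coordinates TUBB4A spans -36.7 to -28.2 kb from the start of TNFSF9, CD70 spans 52.2 to 73.1 kb, TNFSF14 spans 132 to 140 kb and C3 spans 147 to 200 kb. C3 had 15180 ± 812 normalized counts with mitoxantrone and 1506 ± 12.8 with DMSO, a log2 fold change of 3.33 ± 0.07. TUBB4A had 523 ± 52.2 with mitoxantrone and 101 ± 28.4 with DMSO, a log2 fold change of 2.37 ± 0.13 (edgeR, adjusted p = 4.29e-20). TNFSF9 is on the plus strand and the other 4 on the minus strand.

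The neighbouring genes on both sides, DENND1C and GPR108, were not listed. The next listed gene was EMR1 (now ADGRE1), an adhesion receptor of myeloid cells, at 208 ± 7.81 normalized counts with mitoxantrone and 72.0 ± 10.3 with DMSO (log2 fold change 1.54 ± 0.14). Leaving out the 3 ligands, which were chosen from the listed genes, 3 of 26 protein-coding genes within 500000 bases on either side were listed, and TUBB4A, C3 and EMR1 were all higher. That is 11.5% listed and higher, near the 11.2% listed and higher on chromosome 19 and the 10.3% of 19940 on all chromosomes. Listed in either direction were 280 of 1472 genes on chromosome 19 and 17.9% on all chromosomes. Within 250000 bases these 3 genes were 3 of 17 (17.6%), and within 1000000 bases 8 of 65 were listed, 5 higher and 3 lower. Uninterrupted runs of at least 5 listed and higher protein-coding genes occurred at 3 places in the genome, and the other runs were protocadherin alpha genes on chromosome 5, which share exons, and OPN1SW to ATP6V1F on chromosome 7. The runs were counted after the values were seen, and 3 of the 5 genes of the chromosome 19 run are the ligands themselves. By GENCODE 29, CD70 overlaps the pseudogene RPL7P50 on the opposite strand and C3 overlaps GPR108 on the same strand; whether the libraries kept strand is not given in the sources used here.

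**Figure D3:**
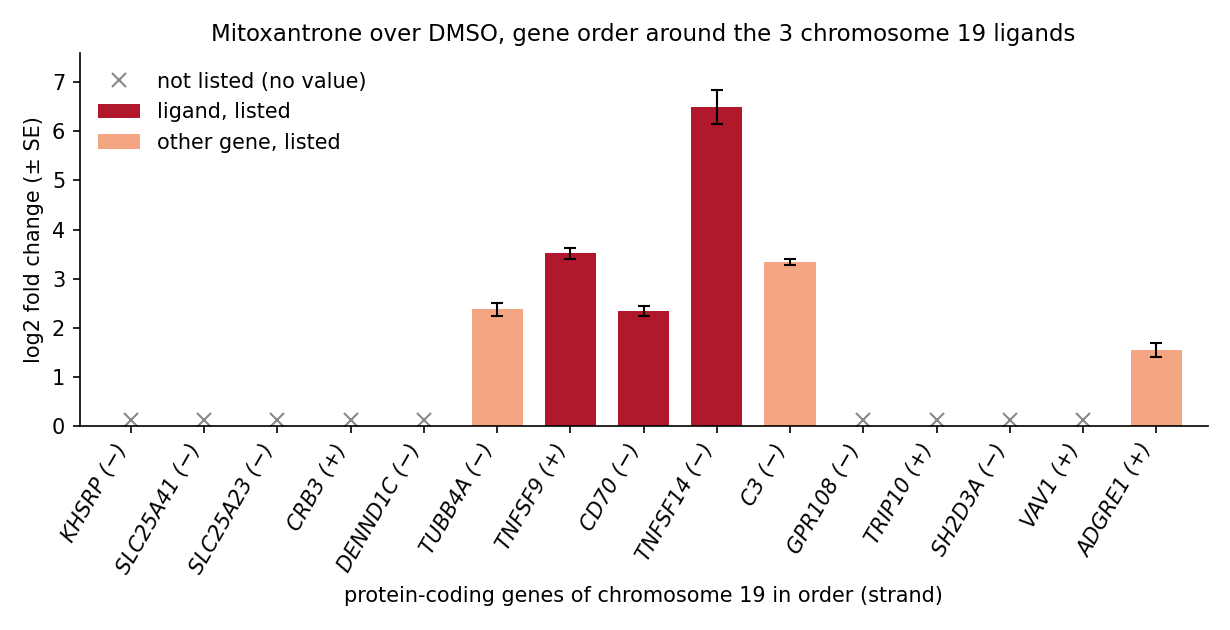
Log2 fold change (mitoxantrone over DMSO, bars, with SE) of protein-coding genes in their order on chromosome 19, with the strand in brackets; crosses mark genes that are not listed and have no value. The 3 ligands stand between TUBB4A at 2.37 and C3 at 3.33 in a run of 5 listed genes.

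Genes whose profile over the 6 libraries was nearest to each ligand were found among the 2622 listed genes with a mean of at least 50 normalized counts, by Euclidean distance between centred log2(normalized count + 1) profiles. For TNFSF9 these were FBN1, which encodes fibrillin, at a distance of 0.15, AOX1, an aldehyde oxidase gene, at 0.25, and C3 at 0.26. For CD70 they included C17orf103 (0.15) and POLH, which encodes the translesion polymerase eta (0.19). TNFSF14 had no gene as near: TRIM22 stood at 1.04, SLC52A1 at 1.08 and CYGB at 1.32. Its 3, 0 and 2 reads in DMSO 1 to 3 scatter widely on this scale, which also widens its distances. With 2 groups, such distances mainly order genes by the size of their fold change.

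Of the receptors that the chromosome 19 ligands engage, TNFRSF9, CD27, LTBR and the decoy TNFRSF6B were not listed, and TNFRSF14 was. TNFRSF14, the HVEM receptor of TNFSF14, had 64 reads over the mitoxantrone libraries and 2 over the DMSO libraries, a ratio of 40.4 (10.7 to 341, exact 95% interval). Its levels were 23.0, 23.7 and 24.5 normalized counts in mitoxantrone 1 to 3, against 0.86, 0 and 0.86 in DMSO 1 to 3 (log2 fold change 5.07 ± 0.64; edgeR, adjusted p = 1.65e-09). TNFRSF25, the receptor of TNFSF15, averaged 69.1 ± 8.56 with mitoxantrone and 12.6 ± 5.51 with DMSO (log2 fold change 2.44 ± 0.28), and overlaps the listed genes ESPN and PLEKHG5. Both receptors were higher in each mitoxantrone library than in any DMSO library, as were 57.5% of listed genes, with 40.8% apart the other way.

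Of 29 receptor superfamily genes 10 were listed, beside 17.9% of all protein-coding genes. Of these 7 were called higher and 3 lower, a split near the 58.9% higher and 41.1% lower of all listed genes. Their median log2 fold change was 1.49, beside 1.20 for all listed genes. FAS, the death receptor, had 1362 ± 51.9 normalized counts with mitoxantrone and 160 ± 7.43 with DMSO (8.50-fold), and it overlaps ACTA2, listed, on the opposite strand. TNFRSF10D, a decoy receptor of the death ligand TRAIL, averaged 2007 ± 84.0 with mitoxantrone and 274 ± 22.0 with DMSO, a 7.31-fold difference. EDA2R, a receptor of ectodysplasin, rose 3.10-fold, CD40, the receptor of CD40 ligand, 2.54-fold and the decoy TNFRSF10C 2.21-fold. TNFRSF10C missed the threshold when tested for exceeding 2-fold (edgeR glmTreat, adjusted p = 0.063) or DESeq2 with its own size factors (adjusted p = 0.098). Lower were TNFRSF12A, the receptor of TWEAK, at 5057 ± 236 with mitoxantrone and 11512 ± 1265 with DMSO, TNFRSF19, at 22.5 ± 4.78 with mitoxantrone and 87.4 ± 7.98 with DMSO, and the ectodysplasin receptor EDAR. EDAR had 3 reads with mitoxantrone and 27 with DMSO, a ratio of 0.14 (exact 95% interval 0.027 to 0.456), and its log2 fold change of -2.71 was -3.52 without mitoxantrone 3.

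Among 18 ligand genes of the family, 6 were listed, beside 17.9% of all protein-coding genes, which adds EDA and LTB to the 4 above. Of these 6, 5 were called higher and 1 lower, where 58.9% of listed genes were higher. The 4 ligands above were chosen from the listed genes and are among those 5. EDA, which encodes ectodysplasin, had 35.1, 45.2 and 28.6 normalized counts in mitoxantrone 1 to 3 and 9.43, 16.7 and 12.9 in DMSO 1 to 3 (log2 fold change 1.47 ± 0.32). Its call was lost in DESeq2 with its own size factors (adjusted p = 0.15). LTB, lymphotoxin beta, was the family ligand that fell, with 1.21, 7.90 and 4.08 normalized counts in mitoxantrone 1 to 3 and 17.1, 20.4 and 17.2 in DMSO 1 to 3 (log2 fold change -2.01 ± 0.48, or -2.67 without mitoxantrone 2). The other 12, among them TNF, FASLG, CD40LG and TNFSF10, were not listed.

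The listed genes of the signalling route behind these receptors went the other way. Of 29 genes of TRAF adaptors, death domain proteins and NF-kB, 8 were listed, beside 17.9% of all protein-coding genes. All 8 were called lower and 0 higher (median log2 fold change -1.48), where 41.1% of listed genes were lower. The count higher was also 0 at an unadjusted p of 0.05 and in DESeq2. That these tests repeat the listed direction was likewise largely fixed by selection on these same libraries. TRAF1 had 323 ± 37.4 normalized counts with mitoxantrone and 1327 ± 267 with DMSO, and TRAF2 had 1428 ± 126 with mitoxantrone and 4254 ± 339 with DMSO. MAP3K14, the NF-kB-inducing kinase that some receptors of the family engage, averaged 2071 ± 171 with mitoxantrone and 5730 ± 314 with DMSO (log2 fold change -1.47 ± 0.07). NFKB2, whose product is processed downstream of it, was lower by 2.72-fold, NFKB1 by 2.47-fold, the inhibitor gene NFKBIE by 2.21-fold, and the ubiquitin ligase genes BIRC2 and BIRC3 by 2.98-fold and 2.80-fold. RELA, RELB, TNFAIP3 and the other 18 genes of this list were not listed.

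**Figure D4:**
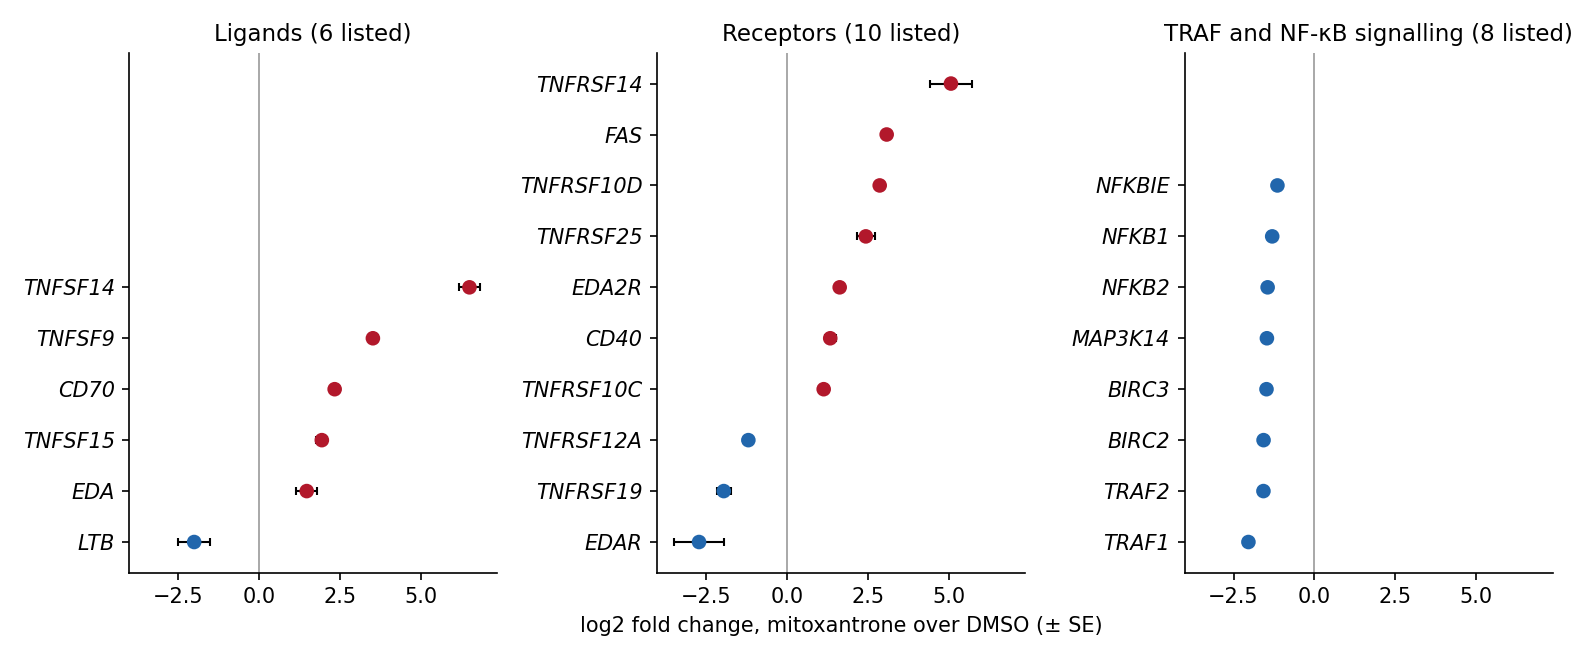
Log2 fold change (mitoxantrone over DMSO, points, with SE) of the listed genes of the ligand, receptor and signalling lists; red points are higher and blue points lower. The signalling genes lie between -2.04 and -1.14, while 5 of 6 ligands and 7 of 10 receptors lie above 0, as do 58.9% of all listed genes.

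All 4 ligands carry the deposited annotation terms immune response, cytokine activity and tumor necrosis factor receptor binding. Of listed genes with the immune response term 51 were higher and 20 lower (71.8% higher, or 70.1% without the 4 ligands), beside 58.9% higher over all listed genes. With cytokine activity 15 were higher and 12 lower (55.6% higher), near that share, but without the 4 ligands 11 of 23 were higher (47.8%). With tumor necrosis factor receptor binding 5 were higher and 2 lower, and 4 of those 5 were the ligands themselves. CD70 and TNFSF14 are also transcribed in leukocytes, and 3 of 20 leukocyte markers were listed, beside 17.9% of all protein-coding genes. These 3 (ITGAX, CD14 and CD8A) were all higher, as were 58.9% of listed genes, with a summed FPKM of 3.85 to 4.14 with mitoxantrone and 0.87 to 1.04 with DMSO. None of these 3 was at 0 in either group. PTPRC, the CD45 gene that defines leukocytes, was not listed and so has no value here. All libraries are labelled as the A549 line, and whether any other cells contributed to the ligand values was not tested.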

How the data were processed

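The 6 libraries hold RNA of A549 cells. Tools named in the submitters' processing notes are HISAT2 2.0.1, cutadapt 1.9.1, SAMtools 0.1.19, HTSeq 0.6.1, Cufflinks 2.2.1 and DESeq2; a genome build is not given in the sources used here. Per the file headers the authors gave raw read counts and FPKM values per library. The authors' deposited mean normalized count is a signal: reads over size factors, averaged. Further deposited columns are a log2 fold change with its error, a score (their ratio), a p-value and an adjusted p-value. Groups came from the sample titles.

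Size factors were recovered from the counts and the deposited means. Library totals were recovered from FPKM of at least 20. The test was edgeR 4.0.16 (R 4.3.3), quasi-likelihood, over all 4546 listed genes, with no low-count filter, Benjamini-Hochberg adjustment and a threshold of 0.05. It was also run on simulated data in which most genes were unchanged. Every gene here was selected as changed, so that run does not give the error rates in this table. Alternatives used TMM, library totals, DESeq2 1.42.0, a count filter, glmTreat, limma 3.58.1 and leaving out libraries. The ligands and the 6 gene lists were chosen with earlier results of these data known. Genes named were the ligands, their receptors, listed members of the lists, neighbours within 500000 bases and the 3 nearest profiles of each chromosome 19 ligand, of which 1 is not reported here. Intervals cover counting error only.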

Additional observations from a re-analysis of the deposited data

How the results depend on the processing

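The 4 ligands kept their direction and passed in all 60 refits of their log2 fold changes, with a largest adjusted p of 5.2e-05 (TNFSF15, limma on log2(FPKM + 0.1)). With 1 library left out TNFSF9 ranged over 3.46 to 3.56, CD70 over 2.27 to 2.40, TNFSF14 over 5.98 to 7.14 and TNFSF15 over 1.88 to 2.03. With DESeq2's own size factors these became 2.68, 1.49, 5.78 and 1.10, lower because the scaling moved all genes; DESeq2 with the recovered size factors, chosen after seeing the data, gave 3.52, 2.33, 6.61 and 1.94. TMM moved the median of all genes by -0.26. In limma the 4 were 3.38, 2.23, 4.38 and 1.52 with 0.1 FPKM added and 2.98, 2.05, 1.77 and 0.61 with 1 FPKM, an addition that shrinks low genes most. With 1 FPKM added the ratio of TNFSF14 to TNFSF9 was -1.21 and to CD70 -0.28. Of 433 refits of other named genes, 430 kept direction and call, and the other 3 (TNFRSF10C in 2 settings, EDA in 1) kept direction only. EDAR and VTCN1 (B7-H4) were removed by the filter of at least 10 counts in at least 3 samples and had no refit there. With that filter 2 receptors were called lower. Libraries with the same number showed no shared deviation (correlations -0.07, -0.08 and 0.03); the replicate block gave 3.52 for TNFSF9, 2.33 for CD70, 6.50 for TNFSF14 and 1.94 for TNFSF15, 4 ligands higher and 0 lower, 7 receptors higher and 3 lower, and level ratio differences of 1.18, 1.00 and 2.15 (sign-flip exact p = 0.25, the smallest for 3 pairs). The table was selected on these libraries, so stability here is no guide to genes at the edge of the authors' selection, and at 5 reads the DMSO level of TNFSF14 is limited by depth.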

Other observations

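Ligands of T cells outside the TNF superfamily were called in both directions. Of 17 genes of the B7, nectin and adhesion families 6 were listed, beside 17.9% of all protein-coding genes. Of these 4 were called higher and 2 lower, a split near the 58.9% higher and 41.1% lower of all listed genes. Their median log2 fold change was 1.87, beside 1.20 for all listed genes. ICOSLG, the ligand of the costimulator ICOS, had 183 ± 22.7 normalized counts with mitoxantrone and 32.0 ± 1.03 with DMSO, and CD276 (B7-H3) had 1548 ± 72.1 with mitoxantrone and 659 ± 37.8 with DMSO. CEACAM1, an adhesion receptor that overlaps the listed gene LIPE-AS1, had 343 ± 12.9 with mitoxantrone and 24.0 ± 9.86 with DMSO. VTCN1 (B7-H4) had 33 reads with mitoxantrone and 3 with DMSO, a ratio of 13.9 (exact 95% interval 4.36 to 70.8), and a log2 fold change of 3.63, or 4.44 without DMSO 3. CD274 (PD-L1) and ICAM1, the adhesion ligand of LFA-1, were lower, at 24.1 ± 0.39 and 20.9 ± 9.43 normalized counts with mitoxantrone, against 201 ± 48.9 and 86.0 ± 15.5 with DMSO. CD80, CD86 and the other 9 were not listed.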
